A study of Mus musculus with 12 samples.

Results

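Mitochondrial fatty acid oxidation and ketone body metabolism were followed through 32 listed genes in the livers of 12 male mice. For each gene the probe set that carried its symbol alone and had the highest mean was used, which gave values for 29 of the 32 genes, among 12393 genes of the arrays. Acsl1, Acsl3 and Cpt1b were not analysed here, because no probe set carried 1 of these symbols alone. The study asked how hepatocyte retinoid X receptor alpha (RXRα) and dietary all-trans retinoic acid (RA) set liver gene expression. All mice had a C57BL/6 background, and 1 Affymetrix mouse array was run per mouse, with 3 mice in each of 4 groups. KO_RA mice lacked functional RXRα in hepatocytes and ate a diet with RA at 150 mg/kg for 7 days, and WT_RA mice were wild type on the same diet. KO mice had the same deficiency on the normal diet, and WT mice were wild type on the normal diet. The wild type mice were 12 weeks old, and the age of the deficient mice was not given apart from theirs. The deficiency came from a Cre recombinase driven by the albumin promoter, which removed the floxed exon 4 of Rxra, so that a truncated protein without the DNA-binding domain was still made and other liver cells kept the intact gene.

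Fatty acids are joined to coenzyme A by acyl-CoA synthetases, pass into mitochondria as acylcarnitines through the carnitine shuttle, and are shortened there by repeated rounds of dehydrogenation, hydration, a further dehydrogenation and thiolysis. In the fasting liver the acetyl-CoA so made feeds the ketone bodies, which the liver exports and other organs burn. RXRα is the partner of peroxisome proliferator-activated receptor alpha (PPARα), a nuclear receptor known for driving these genes in liver through DNA sites built of repeated hexamers, and RXRα also pairs with the RA receptors.

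Expression values are log2 units as deposited, so that a difference of 1 is a doubling, and each difference is given with its standard error. A gene was called when its limma p, adjusted over all 12393 genes, was under 0.05. Array medians lay between 6.26 and 6.35, and lower quartiles between 4.87 and 5.02. On 2 arrays, WT_RA 3 and KO 1, the 3′ control of Actb read 9.40 and 9.12, against 12.1 to 12.9 on the other arrays. The counts of calls for the deficiency on each diet are given with and without both arrays. Rxra itself differed by -0.03 ± 0.18 in KO against WT livers. On the RA diet its mean was 10.84 in KO_RA and 10.23 in WT_RA livers, with every KO_RA liver above every WT_RA liver. Where its probe set lies relative to the deleted exon was not stated, so these values do not check the genotype. Cyp26a1, a direct RA target that degrades RA, rose by 2.78 ± 0.18 in KO_RA against KO livers and by 4.51 ± 0.18 in WT_RA against WT livers. Of 9 measured hepatocyte markers, 0 lay below the lower quartile on all arrays. In whole liver, fewer cells of a type and less RNA per cell cannot be told apart.

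Promoters are shown for the genes whose values the results turn on: the carrier Slc25a20 and the dehydrogenase Acadvl, which fell with the deficiency on both diets, Hadhb, which fell under RA, and Oxct1, which rose on the normal diet. Sequences are from RefSeq for GRCm38.p6, run from 250 bases before to 50 bases after the gene start in the direction of the gene, and were found for 25 of the 29 measured genes. In the Slc25a20 window (chr9:108661886-108662185, plus strand) capitals mark a match to AGGTCANAGGTCA, the direct repeat with 1 base between hexamers that PPARα and RXRα are known to bind, searched on both strands with up to 2 mismatches. In the Acadvl window (chr11:70015379-70015678, minus strand) capitals mark an exact AGGTCA hexamer. The Hadhb window (chr5:30155003-30155302, plus strand) and the Oxct1 window (chr15:4026178-4026477, plus strand) held no match to either.
Slc25a20: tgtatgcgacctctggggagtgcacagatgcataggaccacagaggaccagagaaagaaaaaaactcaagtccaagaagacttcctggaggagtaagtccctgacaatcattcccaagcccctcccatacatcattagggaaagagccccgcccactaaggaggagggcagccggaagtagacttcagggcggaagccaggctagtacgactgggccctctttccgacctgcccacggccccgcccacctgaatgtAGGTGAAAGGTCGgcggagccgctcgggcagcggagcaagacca
Acadvl: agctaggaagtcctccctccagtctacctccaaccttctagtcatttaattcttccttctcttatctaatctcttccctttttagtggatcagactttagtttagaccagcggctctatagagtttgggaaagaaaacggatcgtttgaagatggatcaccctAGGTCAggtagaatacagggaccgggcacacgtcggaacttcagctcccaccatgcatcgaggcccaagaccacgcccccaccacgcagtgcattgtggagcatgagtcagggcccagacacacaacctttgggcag
Hadhb: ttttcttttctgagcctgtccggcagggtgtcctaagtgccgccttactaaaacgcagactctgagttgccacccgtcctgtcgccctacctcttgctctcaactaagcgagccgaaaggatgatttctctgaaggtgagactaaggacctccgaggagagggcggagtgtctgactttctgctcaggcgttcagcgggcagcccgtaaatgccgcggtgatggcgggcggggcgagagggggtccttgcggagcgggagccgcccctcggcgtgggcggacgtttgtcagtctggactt
Oxct1: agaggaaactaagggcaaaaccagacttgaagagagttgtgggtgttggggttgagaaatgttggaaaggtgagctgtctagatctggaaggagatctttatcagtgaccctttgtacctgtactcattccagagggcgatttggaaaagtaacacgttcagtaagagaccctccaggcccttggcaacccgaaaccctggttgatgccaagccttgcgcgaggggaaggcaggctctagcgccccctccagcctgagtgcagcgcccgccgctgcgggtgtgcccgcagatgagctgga
The Slc25a20 match lies 6 to 18 bases after the gene start and differs from the repeat at 2 bases. The 25 genes had 27 windows, of which 4 (14.8%) held such a match, those of Slc25a20, Echs1, Etfa and Pcca, against 3.86% of all 32851 windows. The hexamer AGGTCA is part of the repeat, so both searches overlap, and it stood in 25.9% of the 27 windows, against 16.3% of all windows. The windows of these genes had a median GC content of 60.3%, against 52.7% over all windows. Of the 6 genes that fell under RA, Slc25a20 was the gene with a repeat match, and Acadvl the gene with an exact hexamer. Echs1, Etfa and Pcca, with the other repeat matches, differed by 0.18, 0.05 and 0.17 in KO_RA against WT_RA livers, and none was called. The hexamer also stood in windows of Acadm, Acsm1, Cpt1a, Echs1 and Pcca, genes not called on either diet. Whether a match goes with a fall was not tested. A match of letters is a description of the window and not a binding site.

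RXRα deficiency under RA gave the largest count of calls among the 29 genes. In KO_RA against WT_RA livers 6 genes fell and 0 rose: the carnitine shuttle genes Slc25a20 and Cpt2, the long-chain dehydrogenase genes Acadvl and Acadl, the trifunctional protein gene Hadhb and the isomerase gene Eci1. Their levels were 35.9% to 46.5% lower. Over all genes 3.95% were called in this comparison and 3.03% were called as lower, and 6 of the 29 is 20.7%. At an unadjusted p under 0.05 there were 10 lower and 1 higher of the 29 (17.8% of all genes in either direction). The values of 10 of the 29 genes lay lower in all KO_RA than in all WT_RA livers, against 14.3% of all genes. The median difference over the 29 genes was -0.12, against 0.01 over all genes. The 29 genes had 22 further probe sets, of which 4 were called as lower and 0 as higher, and 19 had the sign of the set used. Beside these genes, 12 of 13 markers of Kupffer cells and macrophages had a negative difference (median -0.31 over the 13, with 1 called as lower), and their part in the result was not tested.

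On the normal diet the deficiency gave 3 calls. Slc25a20 and Acadvl fell in KO against WT livers, and Oxct1, a gene of ketone body use, rose. Over all genes 1.32% were called, 0.831% as lower and 0.484% as higher. At an unadjusted p under 0.05 there were 8 lower and 1 higher of the 29 (16.3% of all genes in either direction). The values of 8 of the 29 genes lay lower in all KO than in all WT livers, against 10.2% of all genes. The median difference was -0.16, against 0.02 over all genes, and 23 of the 29 differences were negative, against 45.1% of all genes. The median was -0.28 without KO 3 and -0.07 after further quantile normalization. The deficiency was measured in separate mice on the diets, and 19 of the 29 genes (65.5%) had a negative difference on both, against 26.5% of all genes.

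**Figure D1:**
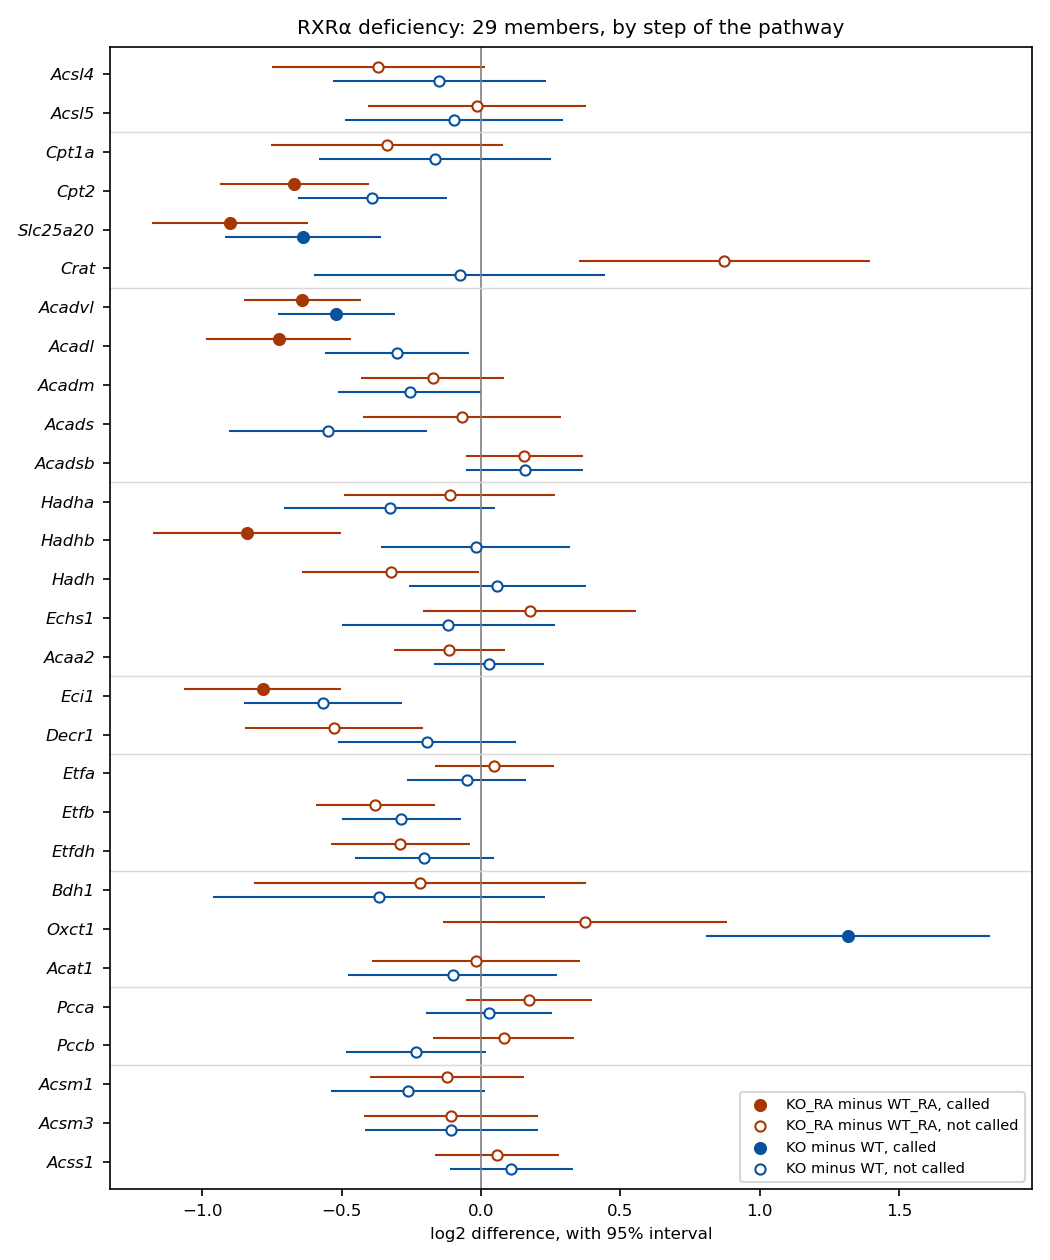
Differences of the 29 genes in log2 units with 95% intervals (x axis), grouped by step of the pathway down the page, for KO_RA minus WT_RA and KO minus WT. Filled points are called genes. Under RA the 6 called genes lie between -0.90 and -0.64, and on the normal diet Oxct1 stands at 1.32, to the right of all others.

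The carnitine shuttle held the largest fall. Slc25a20 encodes the carrier that exchanges acylcarnitine for carnitine across the inner mitochondrial membrane. It read 9.34, 9.67 and 9.44 in KO_RA livers, 10.46, 10.31 and 10.39 in WT_RA livers, 9.59, 9.31 and 9.52 in KO livers and 10.38, 9.98 and 9.98 in WT livers. All 6 deficient livers lay below all 6 wild type livers. Slc25a20 fell by 0.90 ± 0.13 in KO_RA against WT_RA livers (limma adjusted p = 0.0029, 46.5% lower) and by 0.64 ± 0.13 in KO against WT livers (adjusted p = 0.0348, 35.8% lower). A further Slc25a20 probe set had differences of -0.83 and -0.70. The call under RA held without each array, whereas that on the normal diet was lost without KO_RA 3, KO 2, KO 3 or any WT liver, where the highest adjusted p was 0.115.

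Cpt2 encodes the inner membrane transferase that returns the acyl group to coenzyme A. It read 9.55, 9.56 and 9.66 in KO_RA livers, 10.39, 10.23 and 10.17 in WT_RA livers, 9.95, 9.74 and 10.22 in KO livers and 10.51, 10.33 and 10.23 in WT livers. The 3 KO_RA livers were the lowest of all 12 livers. Cpt2 fell by 0.67 ± 0.12 in KO_RA against WT_RA livers (adjusted p = 0.0122), but not without KO_RA 1 (adjusted p = 0.0576). In KO against WT livers the difference was -0.39 ± 0.12 and did not pass (adjusted p = 0.157), although the groups did not overlap. A further, dimmer Cpt2 probe set differed by -0.50 under RA.

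Cpt1a encodes the outer membrane transferase that sets the entry of long-chain acyl groups, the step blocked by malonyl-CoA. The probe set used read 10.16, 10.40 and 10.74 in KO_RA livers, 10.94, 10.94 and 10.42 in WT_RA livers, 10.27, 10.62 and 10.83 in KO livers and 10.88, 10.80 and 10.52 in WT livers. The groups overlapped, and the difference in KO_RA against WT_RA livers was -0.34 ± 0.19 (adjusted p = 0.392). Both further Cpt1a probe sets, of the kind marked as open to cross-hybridization, went lower in the same arrays. The brighter of them read 8.16, 7.67 and 8.67 in KO_RA livers, 9.42, 9.12 and 9.43 in WT_RA livers, 9.05, 8.98 and 8.71 in KO livers and 9.34, 8.94 and 8.46 in WT livers. Its difference in KO_RA against WT_RA livers was -1.16 ± 0.25, a call when adjusted over the 20380 probe sets with 1 symbol (adjusted p = 0.0322). The dimmer set differed by -1.25 ± 0.31 and did not pass (adjusted p = 0.0531). In KO against WT livers the 3 sets differed by -0.16, -0.00 and -0.03, so a fall of Cpt1a under RA depends on which probe set stands for the gene. The sets also disagreed on WT_RA 3 and KO 1, the arrays with the low Actb control. Each was the lowest of its group in the set used and the highest of its group in both further sets. In the set used, WT_RA 3 was the WT_RA liver that overlapped KO_RA livers.

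**Figure D2:**
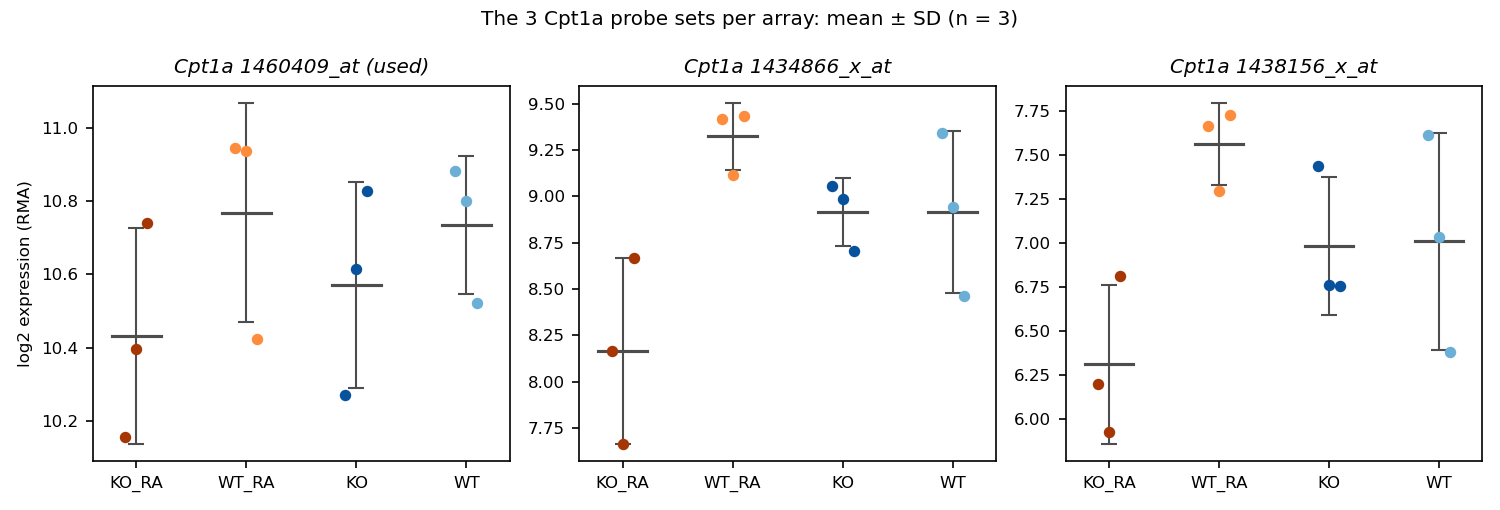
Log2 expression (y axis, own scale in each panel) of the 3 Cpt1a probe sets on each array by group, with points for mice and lines for mean ± SD (n = 3). KO_RA points overlap WT_RA points in the set used, and lie below all WT_RA points in both further sets.

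Crat encodes carnitine acetyltransferase, which moves short acyl groups between coenzyme A and carnitine. It read 7.32, 7.94 and 7.12 in KO_RA livers, 6.83, 6.69 and 6.24 in WT_RA livers, 6.46, 6.48 and 6.96 in KO livers and 7.10, 6.53 and 6.50 in WT livers. The 3 KO_RA livers were above all others, with KO_RA 2 the highest. The difference was 0.87 ± 0.24 in KO_RA against WT_RA livers (adjusted p = 0.0673) and 0.82 ± 0.24 in KO_RA against KO livers (adjusted p = 0.152), and neither passed. A further, dimmer Crat probe set differed by 0.26 ± 0.13 in KO_RA against WT_RA livers and by 0.06 ± 0.13 in KO_RA against KO livers.

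The acyl-CoA dehydrogenases open each round, and each enzyme prefers a range of chain lengths. Acadvl encodes the very-long-chain enzyme of the inner membrane. It read 10.60, 10.76 and 10.60 in KO_RA livers, 11.41, 11.33 and 11.14 in WT_RA livers, 10.76, 10.74 and 10.85 in KO livers and 11.44, 11.24 and 11.22 in WT livers. All 6 deficient livers lay below all 6 wild type livers, with no value between 10.85 and 11.14. Acadvl fell by 0.64 ± 0.10 in KO_RA against WT_RA livers (adjusted p = 0.00394, 35.9% lower) and by 0.52 ± 0.10 in KO against WT livers (adjusted p = 0.0273, 30.2% lower). The call under RA held without each array, and that on the normal diet was lost without KO 2, KO 3, WT 1 or WT 2, where the highest adjusted p was 0.0916.

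Acadl encodes the long-chain enzyme of the matrix. It read 10.20, 10.33 and 10.28 in KO_RA livers, 11.09, 11.08 and 10.82 in WT_RA livers, 10.48, 10.43 and 10.68 in KO livers and 11.05, 10.81 and 10.64 in WT livers. KO_RA livers were the lowest of all 12 and lay below every WT_RA liver, while KO and WT livers overlapped. Acadl fell by 0.73 ± 0.12 in KO_RA against WT_RA livers (adjusted p = 0.00636) and differed by -0.30 ± 0.12 in KO against WT livers (adjusted p = 0.242). A further Acadl probe set lay below the lower quartile on all 12 arrays and differed by 0.18 under RA. With the mean of both sets the fall was 0.27 and did not pass (adjusted p = 0.0794).

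The medium-chain and short-chain dehydrogenases did not pass on either diet. Acadm, the medium-chain enzyme gene, differed by -0.17 in KO_RA against WT_RA livers and by -0.26 in KO against WT livers. Acads, the short-chain enzyme gene, differed by -0.07 ± 0.16 in KO_RA against WT_RA livers and by -0.55 ± 0.16 in KO against WT livers (adjusted p = 0.135). Acadsb, for short branched chains, had positive differences of 0.15 and 0.16. By chain length, then, the 2 long-chain genes fell under RA and the 3 others did not pass, and no test of the difference between these genes was made. On the normal diet this order was not seen. There Acadm and Acads lay lower in all KO than in all WT livers, against 10.2% of all genes. Acads differed by -0.55 beside -0.52 for Acadvl, and Acadl was not called.

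The later steps of the round are held by the trifunctional protein for long chains and by separate enzymes for shorter ones. Hadhb encodes the thiolase subunit of the trifunctional protein. The probe set used, which carries the same mark for cross-hybridization as the further Cpt1a sets, read 10.05, 10.03 and 10.13 in KO_RA livers, 10.96, 10.69 and 11.08 in WT_RA livers, 10.98, 10.47 and 10.56 in KO livers and 10.97, 10.59 and 10.51 in WT livers. The 3 KO_RA livers were the lowest of all 12, and KO livers overlapped WT livers. Hadhb fell by 0.84 ± 0.16 in KO_RA against WT_RA livers (adjusted p = 0.0124, 44.1% lower), but not without KO_RA 1 (adjusted p = 0.0556) or WT_RA 3 (adjusted p = 0.0532). It differed by -0.02 ± 0.16 in KO against WT livers. A further Hadhb probe set without that mark read 10.11, 10.09 and 10.15 in KO_RA livers, 10.68, 10.59 and 10.37 in WT_RA livers, 10.35, 10.31 and 10.51 in KO livers and 10.64, 10.51 and 10.49 in WT livers. It differed by -0.43 ± 0.10 in KO_RA against WT_RA livers (adjusted p = 0.0357 over the probe sets), a smaller difference than in the set used, again with every KO_RA liver below all others. In KO against WT livers this further set differed by -0.16 ± 0.10.

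Hadha encodes the other subunit, with the hydratase and hydroxyacyl dehydrogenase activities. Its gene start lies 273 bases from that of Hadhb on the opposite strand, and their windows share 228 bases, so most of the printed Hadhb sequence is also the Hadha window. Hadha read 10.26, 10.16 and 10.22 in KO_RA livers, 10.59, 10.39 and 10.01 in WT_RA livers, 9.81, 10.13 and 10.48 in KO livers and 10.65, 10.32 and 10.43 in WT livers. The groups overlapped, and Hadha differed by -0.11 ± 0.17 in KO_RA against WT_RA livers and by -0.33 ± 0.17 in KO against WT livers (adjusted p = 0.367). KO 1 and WT_RA 3, the arrays with the low Actb control, were the lowest of all livers in Hadha. In the Hadhb probe set used they were the highest of all livers, so the differences of both genes depend on those arrays. The values of Hadha and Hadhb stand side by side here, and the difference between them was not tested. Hadh, Echs1 and Acaa2, which encode a short-chain hydroxyacyl dehydrogenase, a short-chain hydratase and a thiolase, differed by -0.32, 0.18 and -0.11 in KO_RA against WT_RA livers, and none passed.

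Unsaturated chains need an isomerase and a reductase beside the main round. Eci1 encodes the enoyl-CoA isomerase. It read 9.61, 9.36 and 9.66 in KO_RA livers, 10.59, 10.32 and 10.07 in WT_RA livers, 9.99, 9.80 and 9.87 in KO livers and 10.52, 10.51 and 10.34 in WT livers. All 6 deficient livers lay below all 6 wild type livers, and KO_RA livers lay below KO livers. Eci1 fell by 0.78 ± 0.13 in KO_RA against WT_RA livers (adjusted p = 0.00664, 41.9% lower), a call that held without each array. In KO against WT livers it differed by -0.57 ± 0.13 and did not pass (adjusted p = 0.0579). Decr1, the dienoyl-CoA reductase gene, differed by -0.53 ± 0.15 in KO_RA against WT_RA livers (adjusted p = 0.0704), and a further probe set by -0.81. Electrons from the dehydrogenases pass through electron transfer flavoprotein, whose subunit genes Etfa and Etfb differed by 0.05 and -0.38 (adjusted p = 0.0523 for Etfb), and its oxidoreductase gene Etfdh by -0.29 (adjusted p = 0.202).

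**Figure D3:**
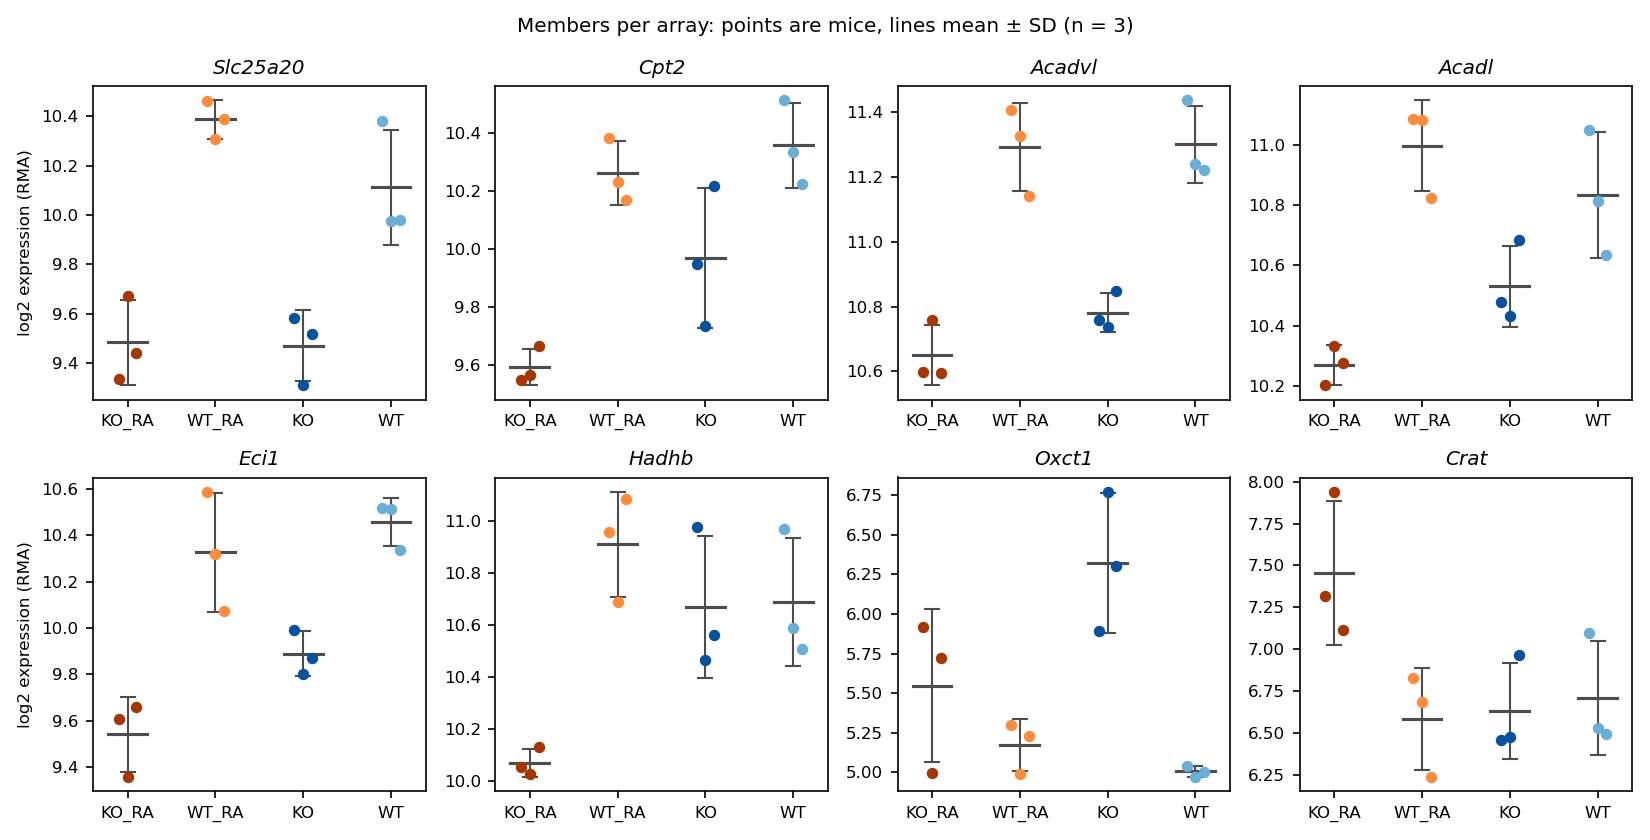
Log2 expression (y axis, own scale in each panel) of 8 genes on each array by group, with points for mice and lines for mean ± SD (n = 3). In Slc25a20, Acadvl and Eci1 both deficient groups lie below both wild type groups, in Cpt2, Acadl and Hadhb the KO_RA points are the lowest, and in Oxct1 the KO points lie above those of WT.

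None of the 3 measured ketone body genes was called as lower on either diet. Oxct1 encodes the transferase by which organs other than the liver use ketone bodies, and hepatocytes are known to hold little of it. It read 5.915, 4.999 and 5.723 in KO_RA livers, 5.301, 4.991 and 5.227 in WT_RA livers, 5.893, 6.772 and 6.303 in KO livers and 5.042, 4.973 and 5.005 in WT livers. WT values lay just above the lower quartile of their arrays, and the 3 KO livers were above all WT livers, with KO 2 the highest. Oxct1 rose by 1.32 ± 0.23 in KO against WT livers (adjusted p = 0.023). The call was lost without KO 2 (1.09, adjusted p = 0.0686), without KO 3 or without any WT liver, where the highest adjusted p was 0.0837. In KO_RA against WT_RA livers it differed by 0.37 ± 0.23, with groups that overlapped. All 3 further Oxct1 probe sets were higher in KO than in WT livers, by 0.47, 1.35 and 0.55, although they were dim.

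Markers of other liver cells moved with Oxct1 on the normal diet, those of Kupffer cells and macrophages with the highest median. All 13 of 13 listed markers had a higher mean in KO than in WT livers, 8 of them without overlap (against 1221 of 12393 genes). The median difference was 1.26, although limma called 0 of the markers (13 at an unadjusted p under 0.05). Their mean deviation was -0.42, 1.56 and 0.46 in KO livers and -0.77, -0.71 and -0.58 in WT livers, so that KO 2 was the highest in both measures. It was -0.10, -0.12 and 0.06 in KO_RA livers and -0.08, 0.07 and 0.64 in WT_RA livers. No Kupffer cell marker was below the lower quartile on all arrays. Endothelial markers were higher in KO than in WT livers for 9 of 10 (median 0.28, 7 at an unadjusted p under 0.05), and their mean deviations of 0.10, 0.39 and 0.29 in KO livers were the highest of the 12 livers. Stellate cell and fibroblast markers were higher for 8 of 9 (median 0.18) and T or NK cell markers for 5 of 5 (median 0.21), and none of these 3 lists held a called gene. WT_RA 3 was the second highest of the 12 livers in the Kupffer cell markers. Its Oxct1 value of 5.23 lay between those of the other WT_RA livers, whereas 2 of the 3 further Oxct1 probe sets, both dim, had WT_RA 3 as the highest WT_RA liver. In WT_RA against WT livers, 13 of 13 Kupffer cell and macrophage markers were also higher, 10 of them without overlap. Their median difference was 0.996, with 1 called as higher and 7 at an unadjusted p under 0.05. Oxct1 differed by 0.17 ± 0.23 there, and its WT_RA and WT values overlapped. The part of the other liver cells in the Oxct1 result was not tested.

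**Figure D4:**
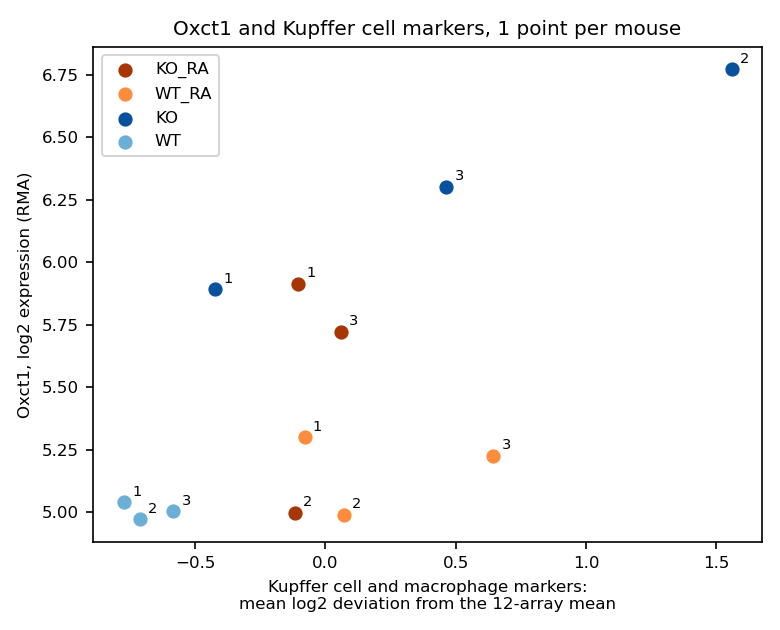
Oxct1 in log2 units (y axis) against the mean deviation of 13 Kupffer cell and macrophage markers from their 12-array means (x axis, log2 units), with 1 point per mouse and its replicate number. KO 2 is highest on both axes at 6.77 and 1.56, WT livers are lowest on the marker axis, and WT_RA 3 is the second highest on the marker axis, with an Oxct1 value of 5.23 in the probe set used.

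Bdh1 encodes the dehydrogenase that makes β-hydroxybutyrate. It read 10.43, 9.62 and 10.56 in KO_RA livers, 10.90, 10.48 and 9.88 in WT_RA livers, 10.06, 10.42 and 10.70 in KO livers and 10.77, 10.70 and 10.82 in WT livers. WT livers were close together, while those of the other groups were spread more widely, and Bdh1 differed by -0.22 ± 0.27 in KO_RA against WT_RA livers and by -0.37 ± 0.27 in KO against WT livers. Acat1 encodes the mitochondrial acetoacetyl-CoA thiolase. It read 11.28, 11.23 and 11.26 in KO_RA livers, 11.63, 11.21 and 10.99 in WT_RA livers, 11.07, 11.19 and 11.68 in KO livers and 11.54, 11.39 and 11.31 in WT livers. The Acat1 groups overlapped on both diets, with differences of -0.02 ± 0.17 and -0.10 ± 0.17.

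Of the remaining genes, Acsl5, Pcca, Pccb, Acsm1 and Acss1 did not pass in any comparison. Acsl5 encodes a long-chain acyl-CoA synthetase, Pcca and Pccb the subunits of propionyl-CoA carboxylase, Acsm1 a medium-chain synthetase and Acss1 mitochondrial acetyl-CoA synthetase. Acss1 lay below the lower quartile on all 12 arrays. Pcca and Pccb differed by 0.17 and 0.08 in KO_RA against WT_RA livers.

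RA by itself gave 0 calls among the 29 genes in either genotype. In WT_RA against WT livers limma called 0 of the 29 (1 at an unadjusted p under 0.05), against 1.27% and 11.7% of all genes, and the median difference was -0.05, against -0.01 over all genes, and 0.03 without WT_RA 3. Acsl4, which encodes a synthetase that prefers arachidonic acid, read 8.19, 7.89 and 8.23 in KO_RA livers, 8.58, 8.20 and 8.64 in WT_RA livers, 7.65, 8.29 and 7.81 in KO livers and 8.21, 8.14 and 7.85 in WT livers. Its WT_RA and WT values overlapped, and it differed by 0.41 ± 0.18 (adjusted p = 0.389). Its further probe sets differed by 0.03 ± 0.36 and 0.05 ± 0.19 in WT_RA against WT livers. Acsm3, a medium-chain synthetase gene, read 9.02, 9.43 and 9.27 in KO_RA livers, 9.42, 9.36 and 9.28 in WT_RA livers, 9.72, 9.35 and 9.58 in KO livers and 9.93, 9.59 and 9.44 in WT livers. WT_RA livers lay below WT livers without overlap, with a difference of -0.30 ± 0.14 that did not pass (adjusted p = 0.446). Slc25a20 differed by 0.27 ± 0.13 in WT_RA against WT livers (adjusted p = 0.439).

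In KO_RA against KO livers limma also called 0 of the 29 (6 at an unadjusted p under 0.05, 5 of them lower), against 0.5% and 14% of all genes. The median difference was -0.11, against -0.03 over all genes, and it was -0.02 without KO 3 and -0.04 without KO_RA 2. Hadhb differed by -0.60 ± 0.16 (adjusted p = 0.111) in the probe set used, and by -0.27 ± 0.10 in its further probe set. Oxct1 differed by -0.78 ± 0.23 (adjusted p = 0.168). Beside Oxct1, 13 of 13 Kupffer cell and macrophage markers (median -0.53, 0 called), 8 of 10 endothelial markers (1 called as lower) and 7 of 9 stellate cell and fibroblast markers (0 called) had negative differences here, and their part in the result was not tested. Cpt2 differed by -0.38 ± 0.12 and Eci1 by -0.35 ± 0.13, both without overlap between KO_RA and KO livers. This comparison shares its KO_RA arrays with that of KO_RA against WT_RA livers, so the low KO_RA values stand in both.

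**Figure D5:**
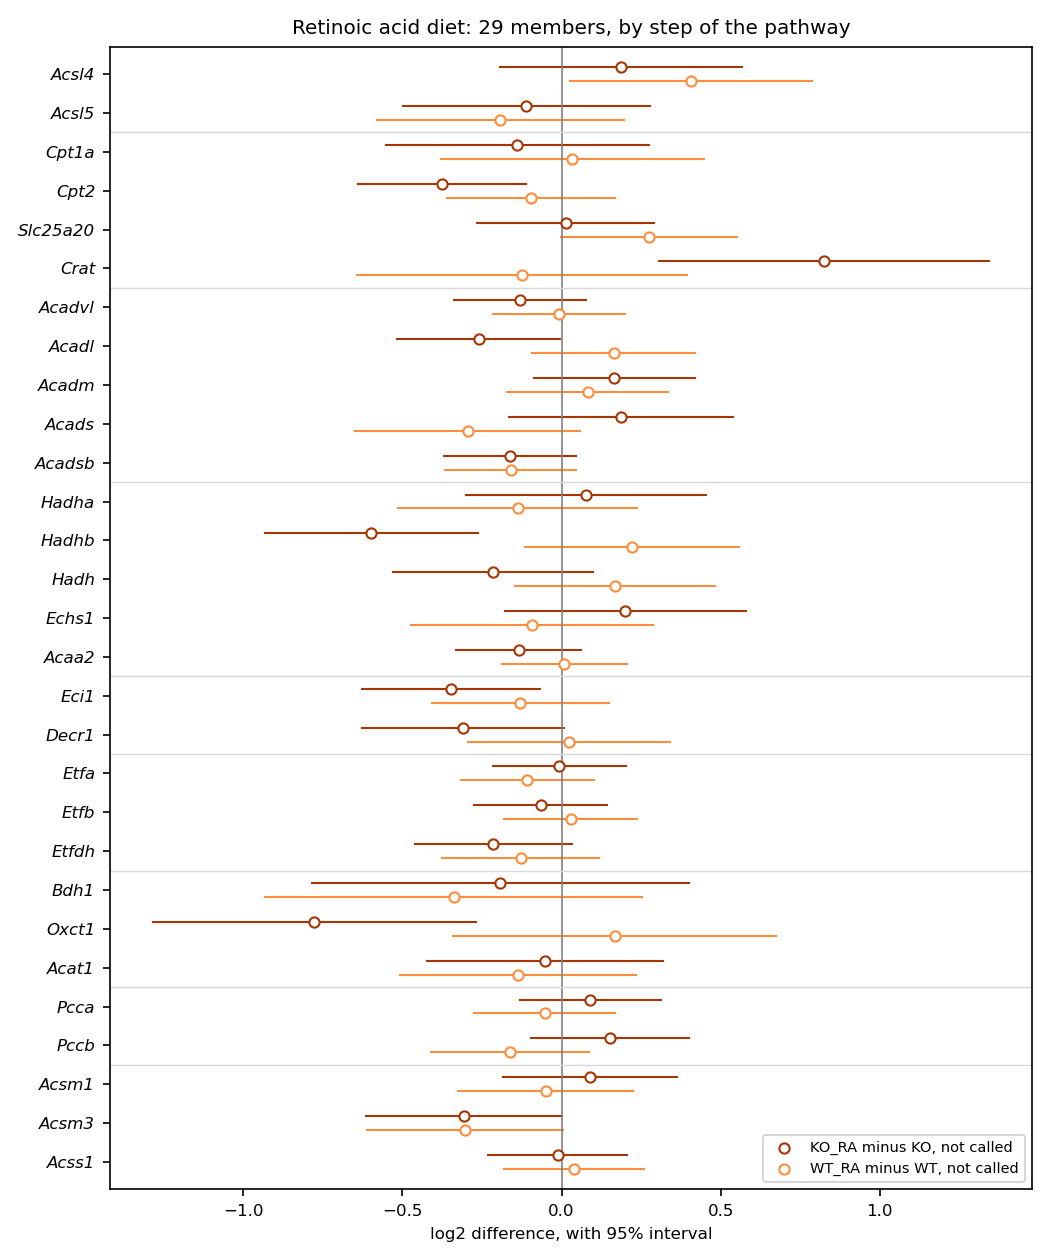
Differences of the 29 genes in log2 units with 95% intervals (x axis), grouped by step of the pathway down the page, for KO_RA minus KO and WT_RA minus WT. No point is filled, since 0 genes were called, and Hadhb lies at -0.60 for KO_RA minus KO and at 0.22 for WT_RA minus WT.

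Whether RA acted differently in KO than in wild type mice was tested as the RA difference in KO mice minus that in WT mice. It was called for 0 of the 29 genes (4 at an unadjusted p under 0.05), against 0.00807% and 11.7% of all genes. Hadhb had a difference of effects of -0.82 ± 0.22 (adjusted p = 0.225), Oxct1 of -0.94 ± 0.33 (adjusted p = 0.3), Crat of 0.95 ± 0.34 (adjusted p = 0.307) and Acadl of -0.42 ± 0.17 (adjusted p = 0.36). Further probe sets gave smaller values for Hadhb (-0.28 ± 0.14) and Crat (0.07 ± 0.19), so the sizes of both depend on the probe set. The further sets of Oxct1 gave -0.32, -1.41 and -0.53, and that of Acadl 0.13, all from dim sets. In the probe sets used, the 95% interval for Hadhb was -1.30 to -0.34, and that for Slc25a20 -0.66 to 0.13. So the calls under RA that were missing on the normal diet were not shown to depend on the diet.

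Seen by array, the median deviation of the 29 genes from their 12-array means was -0.04, -0.19 and -0.05 in KO_RA livers and 0.26, 0.06 and -0.06 in WT_RA livers. It was -0.18, -0.15 and 0.12 in KO livers and 0.19, 0.13 and 0.07 in WT livers. WT_RA 3 was the lowest of the wild type livers and KO 3 the highest of the deficient ones, so the groups overlapped in this summary. Without WT_RA 3 the median difference in KO_RA against WT_RA livers was -0.27, without WT_RA 1 it was -0.06, and after further quantile normalization -0.06. Without WT_RA 3 and KO 1 there were 7 calls under RA and 4 on the normal diet.

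Genes for other mitochondrial functions, taken as a list of respiratory chain, citrate cycle and related genes, had mostly negative differences under RA. In KO_RA against WT_RA livers 22 of 23 differed downwards with a median of -0.16, and Cycs, the cytochrome c gene, was called (-0.53 ± 0.10, adjusted p = 0.0124). Of the 29 genes 21 were negative there with a median of -0.12, and of all genes 47.6% with a median of 0.01. Values lay lower without overlap for 11 of the 23, against 10 of the 29 and 14.3% of all genes. On the normal diet 17 of 23 were negative in KO against WT livers with a median of -0.10 and limma called 0 (4 at an unadjusted p under 0.05). Of the 29 genes 23 were negative in that comparison, and of all genes 45.1%. In KO_RA against WT_RA livers 8 of 9 hepatocyte markers had a positive difference with a median of 0.05, and 0 were called (0 at an unadjusted p under 0.05). In KO against WT livers 6 of 9 had a negative difference with a median of -0.06, and 0 were called, with Tat, a tyrosine breakdown gene, at -0.59 ± 0.16 (adjusted p = 0.111) the 1 marker at an unadjusted p under 0.05.

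Genes around the pathway were counted from a list of 39 measured genes. It covered ketone body transport, fatty acid uptake and binding, regulation, and other mitochondrial acyl-CoA enzymes and related enzymes. In KO_RA against WT_RA livers 5 of the 39 fell and 2 rose, beside 3.95% of all genes called. Slc22a5 encodes the cell membrane carrier for carnitine. It read 7.15, 7.40 and 7.23 in KO_RA livers, 8.74, 8.47 and 8.18 in WT_RA livers, 7.75, 7.53 and 7.58 in KO livers and 8.26, 8.10 and 7.79 in WT livers. Every KO_RA liver lay below every WT_RA liver, and Slc22a5 fell by 1.21 ± 0.15 (adjusted p = 0.00134). Slc27a2, which encodes a fatty acid transporter with very-long-chain acyl-CoA synthetase activity, read 12.05, 12.28 and 12.29 in KO_RA livers, 13.08, 13.12 and 12.86 in WT_RA livers, 12.15, 12.07 and 12.21 in KO livers and 12.94, 12.75 and 12.58 in WT livers. It was lower in all deficient than in all wild type livers, and fell by 0.81 ± 0.11 under RA (adjusted p = 0.00259) and by 0.61 ± 0.11 on the normal diet (adjusted p = 0.0267).

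Aldh3a2, the fatty aldehyde dehydrogenase gene, read 7.75, 7.83 and 8.03 in KO_RA livers, 10.27, 9.76 and 8.87 in WT_RA livers, 8.04, 7.73 and 8.17 in KO livers and 9.51, 9.79 and 9.19 in WT livers. It fell by 1.77 ± 0.28 in KO_RA against WT_RA livers (adjusted p = 0.00543) and by 1.51 ± 0.28 in KO against WT livers (adjusted p = 0.0273), and no deficient liver reached the lowest wild type liver. Fabp1, the liver fatty acid binding protein gene, fell by 1.56 ± 0.37 in KO_RA against WT_RA livers (adjusted p = 0.0368), and Hibch, of valine breakdown, by 0.48 ± 0.09 (adjusted p = 0.0175). Acaca, which encodes the carboxylase that makes malonyl-CoA for fatty acid synthesis, rose by 0.52 ± 0.11 (adjusted p = 0.0232), and Hsd17b10, of branched-chain amino acid breakdown, by 0.64 ± 0.13 (adjusted p = 0.0193). In KO against WT livers 2 of the 39 fell and 0 rose, beside 1.32% of all genes called. Limma called 0 of the 39 in WT_RA against WT livers (12 at an unadjusted p under 0.05, beside 11.7% of all genes), 0 in KO_RA against KO livers (10, beside 14%) and 0 for the difference between these effects (9, beside 11.7%).

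Ppara, the PPARα gene, read 9.69, 10.23 and 10.61 in KO_RA livers, 9.91, 9.88 and 5.92 in WT_RA livers, 6.35, 9.18 and 9.44 in KO livers and 9.52, 10.31 and 9.80 in WT livers. It read 5.92 and 6.35 on WT_RA 3 and KO 1, the arrays with the low Actb control, and at least 9.18 on all others, so its group means rest on those arrays. Ppara differed by 1.61 ± 0.98 in KO_RA against WT_RA livers (adjusted p = 0.432) and by -1.55 ± 0.98 in KO against WT livers (adjusted p = 0.44).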

How the data were processed

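Total liver RNA was hybridized to Affymetrix arrays, 12 in all. The authors deposited log2 values per probe set, and per the submitters' notes they came from RMA, which quantile-normalizes arrays and draws differences of dim probe sets towards 0, in Partek 6.11. The paper names a different program for its array data, Affymetrix Expression Console (MAS5). Scanner files were not used here. Precision is limited by the number of arrays. Of 22690 probe sets, 64 were controls, 20380 carried 1 gene symbol in the platform annotation, 691 several and 1555 none, and the brightest set with 1 symbol stood for each of 12393 genes, with no filter on dim sets. Levels of different probe sets are not comparable with each other.

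In limma 3.58.1 (R 4.3.3), group means over the 12 arrays shared 1 estimate of spread (8 residual degrees of freedom), contrasts were moderated with eBayes and tested two-sided, and p was adjusted by Benjamini-Hochberg over all 12393 genes, or over the 20380 probe sets where stated. The script was tested on simulated data. Groups and replicate numbers came from the titles, which call the mice biological replicates. The numbers did not pair the samples: over 18 pairs of arrays with the same number in different groups, correlations of deviations ran from -0.458 to 0.266, and 5 were over 0.1.

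The members and lists were chosen with earlier results of these data known. Values per array are given for members called in any comparison, for those with the 3 smallest p in each comparison, and for Cpt1a and the ketone body genes, and called genes of the list around the pathway are named, as are Ppara, Rxra and Cyp26a1. The values per array of further genes (Hadha, Slc22a5, Slc27a2, Aldh3a2, Fabp1, Ppara, Slc16a1, Pdk4), those of further probe sets, and Tat were chosen after they were seen. Alternatives were a replicate block, array weights, trend and robust moderation, no moderation, the groups of a contrast alone, median centring, further quantile normalization, a filter on dim probe sets, the mean of probe sets, leaving out each array, and leaving out both arrays that stood apart.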

Additional observations from a re-analysis of the deposited data

How the results depend on the processing

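Of the 6 genes that fell in KO_RA against WT_RA livers, Slc25a20, Acadvl and Eci1 passed in all 22 alternatives, the count ran from 4 to 7 when each array was left out, and Hadhb was not called without moderation (adjusted p = 0.0605). The median of the 29 genes ran from -0.273 (without WT_RA 3, and without WT_RA 3 and KO 1) to -0.061. On the normal diet the count of 3 was 1 with the replicate block (Acadvl), 1 with the groups of the contrast alone (Oxct1), 6 with array weights and 0 with no moderation. It ran from 0 to 4 when each array was left out, with 0 without KO 2, KO 3, WT 1 or WT 2. Slc25a20 was also not called there after further quantile normalization (adjusted p = 0.0518). Array weights gave 2 calls for RA in wild type mice, 1 for RA in KO mice and 2 for the difference between the RA effects, where the fit without weights gave 0. Without WT_RA 3 and KO 1 the median of that difference was -0.181. The cause of these changes was not tested. No called gene changed direction in any alternative, while the median for RA in wild type mice was between -0.113 and 0.029 when each array was left out. With 3 mice a group, a p that misses the threshold does not show that levels were alike, and dim probe sets such as those of Oxct1 and Acss1 limit what can be read.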

Other observations

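Ketone body export and pyruvate control were measured beside the listed genes. Slc16a1, which encodes a carrier for ketone bodies and lactate, read 9.47, 8.92 and 8.57 in KO_RA livers, 8.15, 8.22 and 8.10 in WT_RA livers, 8.20, 8.19 and 8.74 in KO livers and 9.04, 8.47 and 8.57 in WT livers. Every KO_RA liver lay above every WT_RA liver, and the difference was 0.83 ± 0.22 in KO_RA against WT_RA livers, which did not pass (limma adjusted p = 0.0602). Pdk4, which encodes a kinase that holds back pyruvate oxidation, read 6.57, 5.40 and 6.42 in KO_RA livers, 5.57, 5.68 and 5.07 in WT_RA livers, 4.97, 5.04 and 4.97 in KO livers and 4.55, 4.02 and 4.36 in WT livers. Pdk4 differed by 1.14 ± 0.26 in KO_RA against KO livers (adjusted p = 0.08) and by 1.13 ± 0.26 in WT_RA against WT livers (adjusted p = 0.0671). WT livers were the lowest of all 12 in Pdk4, and KO_RA 2 lay below the other KO_RA livers. Fabp1, whose fall is given above, read 12.05, 10.37 and 12.27 in KO_RA livers, 13.48, 12.90 and 13.00 in WT_RA livers, 13.41, 13.34 and 13.45 in KO livers and 13.49, 13.64 and 13.55 in WT livers. KO_RA 2 was the lowest of all 12 livers in Fabp1, and all KO and WT livers read at least 13.34.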
